A study of Homo sapiens with 8 samples.

Results

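Chromatin accessibility was described at 9 immediate early genes of 3 families: the zinc finger transcription factors EGR1, EGR2 and EGR3, the orphan nuclear receptors NR4A1, NR4A2 and NR4A3, and the immediate early response genes IER2, IER3 and IER5. A peak belonged to a gene when it overlapped the body of the RefSeq gene or the 50 kb on either side of it, which took 89 of the 129536 peaks in the count table. Of these, 11 lay within 1 kb of a gene end and are called gene-end peaks, and the other 78 are called distal. No measured value entered this choice, although the genes were picked with earlier results of these data known.

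Open chromatin was profiled by Omni-ATAC-seq, which uses a transposase to cut and tag exposed DNA in isolated nuclei. The cells were HEK293, an established human embryonic kidney cell line. The labels give 4 libraries of cells treated with vehicle and 4 of cells kept for 1 h with 0.2 M sorbitol, a sugar alcohol that makes the medium hyperosmotic. Library names mark the vehicle libraries as 0 h, so treatment and time differ together between the groups and cannot be told apart. The titles name the HEK293 line alone and the library names carry wt, whereas the genotype field gives eGFP-YAP for both groups, and the series text adds a serum starvation of 1 h before treatment for these cells. Neither source says whether replicates came from separate cultures, so the p-values measure only the spread between these libraries, which may be technical.

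Immediate early genes can be transcribed soon after a stimulus without new protein synthesis, because the factors that switch them on are already present and are activated by kinases. Serum response factor (SRF) with its ETS-family partners binds CArG boxes, and CREB-family factors bind cAMP response elements, in many of their promoters. EGR proteins bind GC-rich sites, NR4A receptors act without a known activating ligand, and the IER genes encode small proteins of stress and growth responses. Osmotic stress is a known activator of the p38 kinase pathway, which can act on these promoters.

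RefSeq promoter windows of GRCh38.p14, which run from 250 bases before a gene start to 50 after it, were matched by symbol for 6 of the 9 genes and covered 9 starts. EGR3, NR4A2 and IER3 had no entry. The 250 bases before 5 of these starts are shown because their peaks carry the main contrasts described below. Capitals mark CArG boxes, cores of the cAMP response element (TGACG, written CRE core below), EGR sites (GCGNGGGCG) and GC boxes (GGGCGG), searched on both strands, and this core is also part of the full element TGACGTCA. Positions are counted from the start base as 0, with negative values upstream.
EGR1, chr5:138465229-138465478, plus strand: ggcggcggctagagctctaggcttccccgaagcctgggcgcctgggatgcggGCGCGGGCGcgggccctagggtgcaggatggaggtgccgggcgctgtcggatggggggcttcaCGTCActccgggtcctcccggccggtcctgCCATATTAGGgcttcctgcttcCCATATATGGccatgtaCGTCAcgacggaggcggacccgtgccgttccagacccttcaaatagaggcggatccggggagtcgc
EGR2 inner start, chr10:62816367-62816616, minus strand: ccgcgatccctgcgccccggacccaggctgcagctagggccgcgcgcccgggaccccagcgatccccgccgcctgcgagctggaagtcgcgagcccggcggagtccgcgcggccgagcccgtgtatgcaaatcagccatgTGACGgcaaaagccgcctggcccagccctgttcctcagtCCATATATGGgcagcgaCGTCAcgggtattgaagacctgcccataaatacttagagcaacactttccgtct
EGR2 middle start, chr10:62818776-62819025, minus strand: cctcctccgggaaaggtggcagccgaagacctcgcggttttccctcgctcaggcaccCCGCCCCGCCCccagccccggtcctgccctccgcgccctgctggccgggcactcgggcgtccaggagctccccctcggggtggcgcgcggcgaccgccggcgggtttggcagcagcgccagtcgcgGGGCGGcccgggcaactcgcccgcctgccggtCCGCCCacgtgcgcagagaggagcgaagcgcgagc
NR4A3, chr9:99821635-99821884, plus strand: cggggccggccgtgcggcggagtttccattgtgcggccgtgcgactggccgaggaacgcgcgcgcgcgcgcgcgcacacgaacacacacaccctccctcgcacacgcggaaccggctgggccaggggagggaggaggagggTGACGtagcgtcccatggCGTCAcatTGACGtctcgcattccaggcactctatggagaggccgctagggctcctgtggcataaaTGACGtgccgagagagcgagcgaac
IER2, chr19:13150161-13150410, plus strand: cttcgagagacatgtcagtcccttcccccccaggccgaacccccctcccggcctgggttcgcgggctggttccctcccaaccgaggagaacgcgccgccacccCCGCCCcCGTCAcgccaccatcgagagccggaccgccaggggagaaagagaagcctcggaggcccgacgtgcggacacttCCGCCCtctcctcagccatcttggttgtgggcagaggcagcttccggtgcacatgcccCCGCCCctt

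A CArG box was found in 1.29% of the 35116 RefSeq promoter windows, a cAMP response element core in 24.6%, an EGR site in 9.43% and a GC box in 45.0%. EGR1 held 2 CArG boxes, beginning at -105 and -83, with CRE cores at -135 and -66 and an EGR site at -198. The inner EGR2 start held a CArG box at -71 between CRE cores at -110 and -54. At the middle EGR2 start, GC boxes began at -193, -188, -67 and -35, the first pair overlapping each other by 1 base, and neither CArG box nor CRE core was found. The outermost EGR2 start, at chr10:62819167, is not printed because no peak overlaps its window. NR4A3 held 4 CRE cores, at -109, -91, -83 and -25. IER2 held a CRE core at -140 beside a GC box at -147. A match is a string of letters only, and binding of a factor was not measured.

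Accessibility values below are counts divided by each library's total as scaled with TMM factors (trimmed mean of M-values), expressed as CPM and called scaled CPM. A peak was called higher or lower after sorbitol at an adjusted p of 0.05 in edgeR's quasi-likelihood test, with Benjamini-Hochberg adjustment over all 129487 tested peaks. All 89 peaks passed the filter on low counts and entered the test. Library totals ran from 11522266 to 19831471 counts, and the smallest count of any of the 89 peaks in any library was 11. Because the cells were profiled in bulk, a change in the number of cells open at a peak and a change within each cell cannot be told apart.

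Across the 9 loci, 12 peaks were higher after sorbitol, 22 were lower and 55 were not called. The median log2 fold change was -0.08, against 0.01 for all tested peaks. Of all tested peaks 16.0% were higher and 13.1% were lower, beside 13.5% and 24.7% of the 89. The higher share was thus near the background, and the lower share was above it. The mix of peaks differs, since 11 of the 89 were gene-end peaks and 20 distal ones lay at an end of another gene. Of all tested peaks at the end of any RefSeq gene 32.8% were lower. All 4 sorbitol libraries lay above all 4 vehicle libraries at 10 of the 89 peaks and below them at 17, where the whole table had 13.7% and 12.6%. Changes of at least 2-fold were few: 1 of the 89 peaks rose and 2 fell by that much, with 5.27% and 0.881% of all tested peaks beyond the same limits. Library factors taken from peaks on unplaced and unlocalized contigs ended most calls and left 3 higher and 4 lower. Those 7 were the rises at the gene end of EGR2, upstream of NR4A3 and 9.02 kb past IER5, and the largest 2 falls each at EGR1 and IER3. Under contig factors the median of all tested peaks was -0.04. The contig level itself varied within groups, from -0.26 to 0.35 in vehicle and from -0.32 to 0.23 in sorbitol libraries (centred log2). The part of this spread in the lost calls was not tested.

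Gene-end peaks divided into 2 higher, 3 lower and 6 not called, with a median of -0.03. Over all 25209 tested peaks at the end of any RefSeq gene, 8.74% were higher and 32.8% were lower, with a median of -0.17. Groups did not overlap at 4 of the 11, with sorbitol above at 2 and below at 2, against 7.62% and 30.8% of all gene-end peaks. Gene-end peaks of the whole table held 50.5% to 52.6% of the counts of the vehicle libraries and 46.7% to 49.4% of those of the sorbitol libraries, and the part of this shift in each result was not tested. Distal peaks divided into 10 higher, 19 lower and 49 not called, with a median of -0.10. Of all tested peaks away from gene ends, 17.7% were higher and 8.38% were lower, with a median of 0.06. The 2 sets are unlike, since 20 of the 78 distal peaks lay at an end of another gene, and of those 20, 3 rose and 6 fell (median -0.15).

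**Figure D1:**
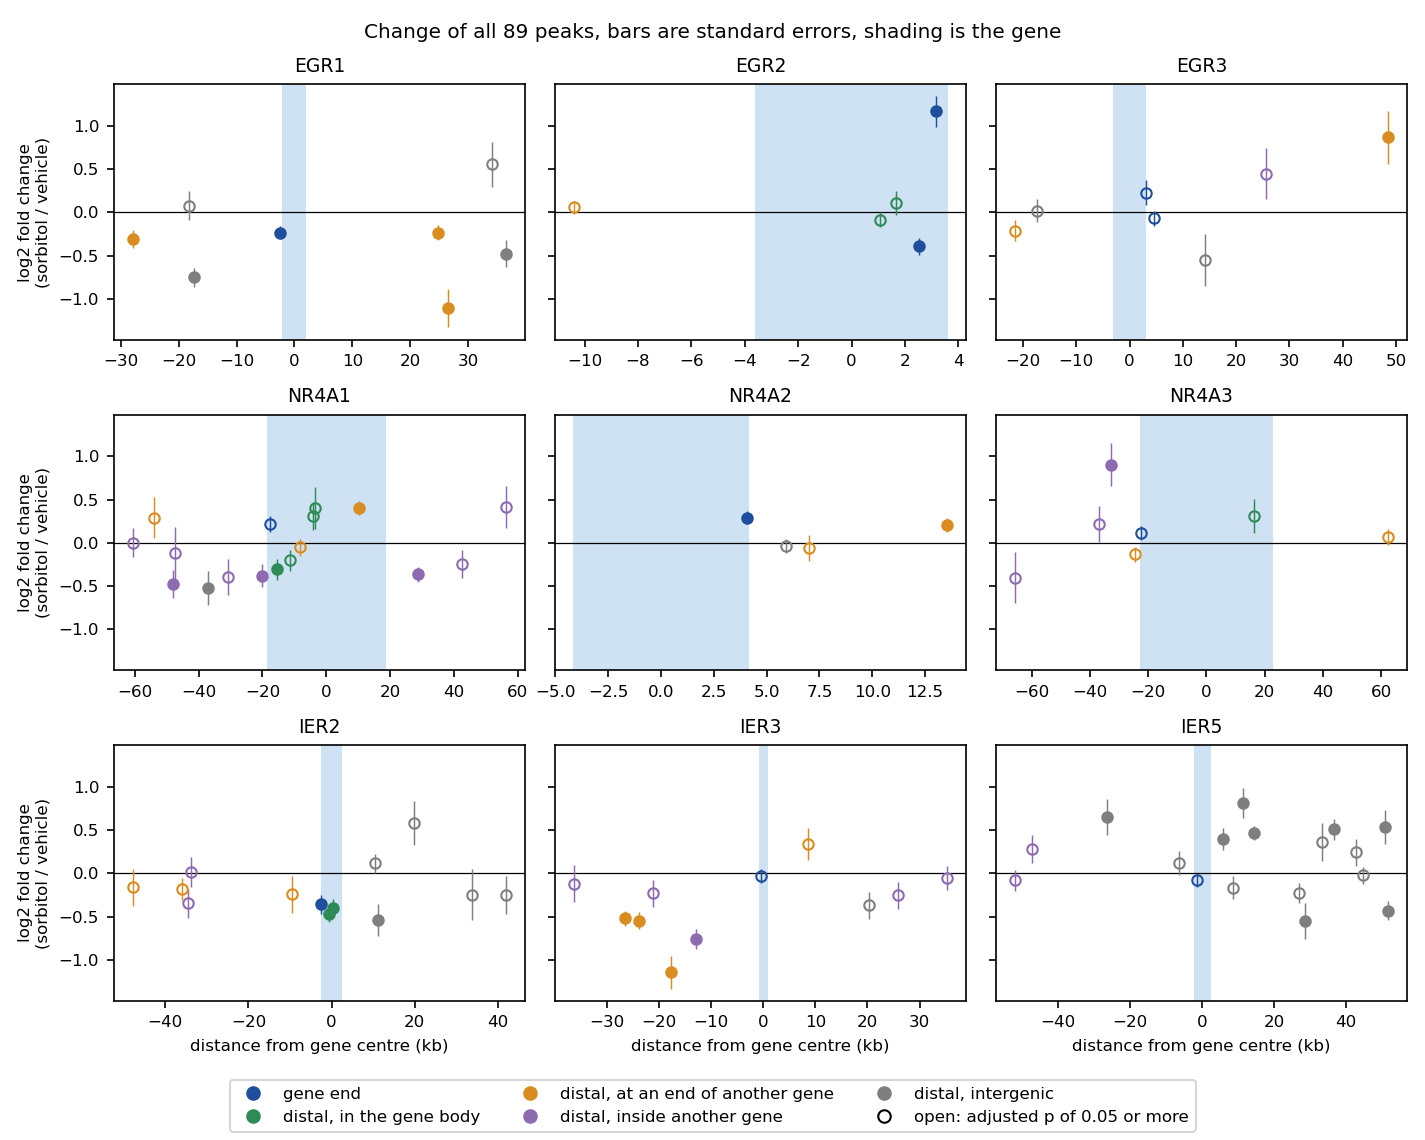
Log2 fold change (sorbitol over vehicle, vertical axis, bars are standard errors) of all 89 peaks against the distance of the peak from the centre of its gene in kb, in 1 panel per gene, with filled points for called peaks and shading for the gene body. The EGR1 panel holds 6 lower and 0 higher peaks, while 6 of the 12 higher peaks sit in the IER5 panel.

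Both called directions met within EGR2, a factor needed for peripheral myelination and hindbrain patterning (chr10:62811996-62819167). A 237 bp peak at chr10:62818614-62818850, which spans the middle start printed above and covers 75 of the 250 bases shown, gave 2.58, 3.01, 2.32 and 3.15 scaled CPM in vehicle replicates 1 to 4. After sorbitol it gave 5.75, 5.52, 6.19 and 7.22 scaled CPM. The lowest sorbitol library was above the highest vehicle library, and this was the only one of the 89 peaks that rose at least 2-fold. The mean went from 2.77 ± 0.381 to 6.17 ± 0.752 scaled CPM (SD, n = 4 libraries per group), a log2 fold change of 1.17 (SE 0.18, edgeR adjusted p = 1.18e-06). The peak is weak, with 38 to 105 counts per library.

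The neighbouring gene-end peak of EGR2, at chr10:62817860-62818370 and 243 bases away, moved the other way. It gave 21.1, 20.7, 21.3 and 20.6 scaled CPM in vehicle and 14.7, 14.1, 17.2 and 17.7 in sorbitol libraries. Vehicle libraries were nearly equal, and every sorbitol library lay below them. The log2 fold change was -0.39 (SE 0.10, edgeR adjusted p = 0.00207), a call lost under gene-end factors (-0.22) and contig factors (-0.44). As a share of the counts in the 2 peaks, which does not depend on library scaling, the weaker peak took 10.9%, 12.7%, 9.83% and 13.3% in vehicle replicates 1 to 4 and 28.0%, 28.2%, 26.5% and 29.0% in sorbitol replicates 1 to 4. The inner start with the CArG box lies in another peak, at chr10:62816212-62817050, whose mean was 40.0 ± 1.57 scaled CPM in vehicle and 37.6 ± 4.21 in sorbitol libraries (SD, n = 4), with overlapping groups and a log2 fold change of -0.08 (SE 0.09, edgeR adjusted p = 0.495). A further body peak at chr10:62817111 had 0.11 and was not called. Summed over its 2 gene-end peaks, EGR2 showed a log2 fold change of -0.10 (SE 0.09, edgeR adjusted p = 0.371), so the opposed changes are not visible in the sum.

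EGR1, the best known growth-factor-inducible member of its family (chr5:138465479-138469303), was lower at 6 of its 8 peaks, its gene end included. Of all tested peaks 13.1% were lower. The peak over its start, at chr5:138463949-138465864, gave 117, 126, 114 and 109.7 scaled CPM in vehicle libraries. The sorbitol libraries gave 96.4, 101, 97.0 and 102 scaled CPM, all below the vehicle range. The log2 fold change was -0.23 (SE 0.07, edgeR adjusted p = 0.0119), beside a median of -0.17 for all tested gene-end peaks. Tested as a gene-end sum it was also -0.23 (edgeR adjusted p = 0.00112), close to the median of -0.22 for those sums over all protein-coding genes. The per-peak call was lost under 4 other library scalings and without vehicle replicate 2 (log2 fold change -0.20, edgeR adjusted p = 0.068), so 15 of 20 alternative settings kept it. This peak contains all 250 printed bases with both CArG boxes.

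Of the 7 distal peaks of EGR1, 5 were lower and 0 were higher, against 8.38% and 17.7% among all peaks away from gene ends. Of the 5, 3 lay at an end of another gene, and 32.8% of all tested gene-end peaks were lower. The peak at chr5:138449831-138450422, between genes and 15.1 kb before the start, gave 18.7, 18.8, 17.4 and 16.97 scaled CPM in vehicle libraries against 10.9, 10.3, 10.96 and 10.6 in sorbitol libraries. The groups were tight and far apart, with a log2 fold change of -0.75 (SE 0.11, edgeR adjusted p = 3.14e-07). A weak peak beside the uncharacterised gene LOC124901078, at chr5:138493680-138494028 and 24.4 kb past the gene, fell more than 2-fold, from 4.83, 4.40, 5.93 and 2.80 scaled CPM to 2.58, 1.55, 2.26 and 2.06. Vehicle replicate 4 was low there and close to the sorbitol libraries, though still above them. The log2 fold change was -1.10 (SE 0.22, edgeR adjusted p = 1.07e-04). Both of these calls held under all 20 alternative settings. The EGR1 distal peak with the smallest p among those with a positive change, at chr5:138501459, was not called, at a log2 fold change of 0.55 (edgeR adjusted p = 0.105).

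EGR3, a factor of muscle spindle and lymphocyte development (chr8:22687659-22693480), showed little change at its ends. Its stronger gene-end peak, at chr8:22694253-22696078, ran from 33.9 to 41.9 scaled CPM in vehicle and from 34.2 to 40.5 in sorbitol libraries, so the ranges coincided. The weaker one, at chr8:22693363-22693739, ran from 5.54 to 8.16 and from 6.58 to 8.45 scaled CPM. Log2 fold changes were -0.07 (SE 0.09) and 0.23 (SE 0.15), with edgeR adjusted p-values of 0.599 and 0.247. Of 5 distal peaks, only the one at chr8:22738975-22739258 was called. It was near the limit of depth, at 0.990 ± 0.150 scaled CPM in vehicle and 1.81 ± 0.570 in sorbitol libraries (SD, n = 4). Its log2 fold change was 0.87 (SE 0.31, edgeR adjusted p = 0.0266), sorbitol replicate 2 fell within the vehicle range, and the call was lost under 9 of 19 alternative settings. These include leaving out vehicle replicate 1 or 3, or sorbitol replicate 1 or 4, the last of which gave 0.66 (edgeR adjusted p = 0.15). The peak with the smallest p among negative changes, at chr8:22704630, was not called, at -0.55 (edgeR adjusted p = 0.175).

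**Figure D2:**
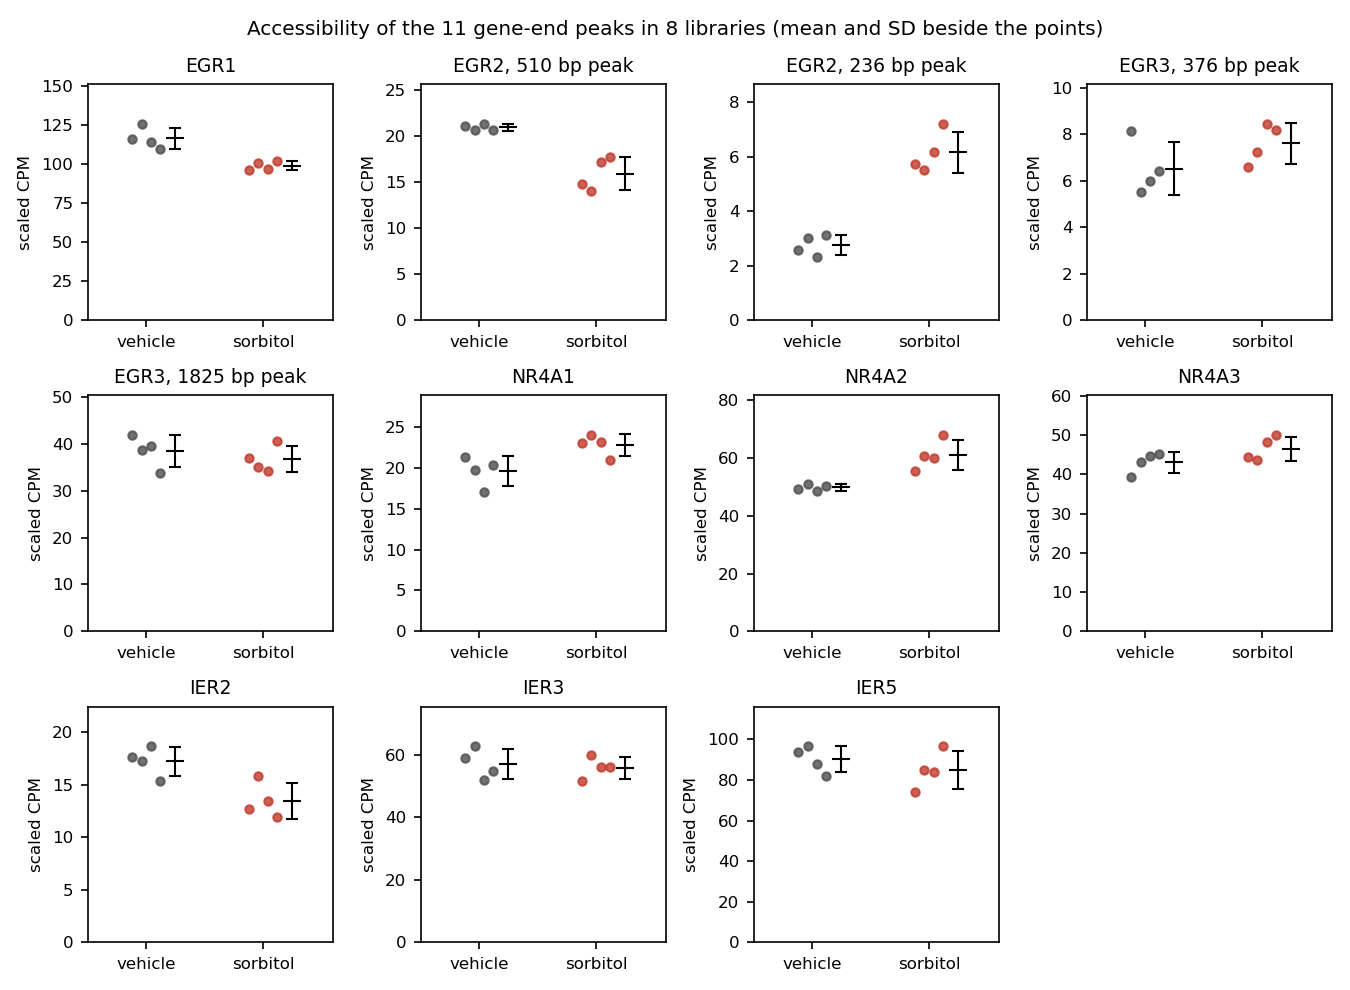
Scaled CPM (vertical axes, starting at 0) of the 11 gene-end peaks in the 4 vehicle and 4 sorbitol libraries, with the mean and SD beside the points. The 237 bp EGR2 peak and the NR4A2 peak have all sorbitol points above all vehicle points, and the EGR1 peak and the 511 bp EGR2 peak have them all below.

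At the NR4A genes, the gene-end log2 fold changes were positive at all 3 members, from 0.11 to 0.29, and 1 of the 3 peaks was called. Of all tested gene-end peaks 8.74% were higher, with a median of -0.17. The NR4A values stayed positive under each of the 6 library scalings tried, from 0.07 to 0.49. Under library totals, factors from gene-end peaks and a loess offset 3 were called, and 0 under factors from unplaced and unlocalized contigs. The median of all tested gene-end peaks moved as well, to -0.09, 0.01, -0.09 and -0.22 in that order. Shares of all peaks called are given for the main factors only. NR4A2, also known as Nurr1 and required for midbrain dopamine neurons (chr2:156324437-156332721), had its gene-end peak at chr2:156331961-156333318. It gave 49.5, 51.1, 48.5 and 50.5 scaled CPM in vehicle and 55.5, 60.6, 60.0 and 68.0 in sorbitol libraries. All sorbitol libraries were higher, and replicate 4 was the highest of them. The log2 fold change was 0.29 (SE 0.08, edgeR adjusted p = 0.00406). The call was lost only under the contig factors (adjusted p = 0.525) among 20 alternative settings.

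A broad distal peak of NR4A2 at chr2:156341204-156343067, which lies at the end of another gene 8.48 kb away, went from 65.0 ± 4.46 to 74.8 ± 6.95 scaled CPM (SD, n = 4). Its groups overlapped, the log2 fold change was 0.20 (SE 0.08, edgeR adjusted p = 0.0467), and 12 of 20 alternative settings ended the call. Leaving out any 1 of vehicle replicates 1, 3 and 4 or sorbitol replicates 2, 3 and 4 was enough, with the lowest value, 0.15, without sorbitol replicate 4. The distal peak of NR4A2 with the smallest p among negative changes, at chr2:156333849, had a log2 fold change of -0.03 and was not called.

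NR4A1, also known as Nur77 (chr12:52022832-52059503), had its gene-end peak just inside the first start at chr12:52022988-52024119. Vehicle libraries gave 21.3, 19.8, 17.02 and 20.4 scaled CPM and sorbitol libraries gave 23.1, 24.0, 23.1 and 20.9. Only sorbitol replicate 4 fell within the vehicle range. Its log2 fold change was 0.22 (SE 0.10), with an edgeR adjusted p of 0.0800 over all peaks and of 0.0401 when the same counts were tested as the gene-end sum among 14729 genes, so the call depends on the family of tests. The second call was lost when vehicle replicate 2 or 3, or sorbitol replicate 1, 2 or 3, was left out, with values of 0.15 to 0.22. At an inner start of the gene, the weak peak at chr12:52037470-52037682 went from 2.02 ± 0.525 to 2.66 ± 0.501 scaled CPM (SD, n = 4; edgeR adjusted p = 0.210).

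Distal peaks of NR4A1 moved both ways, with 1 higher and 5 lower of 16, against 17.7% and 8.38% among all peaks away from gene ends. Inside the gene, at the end of the uncharacterised LOC107984510, the peak at chr12:52050565-52052174 gave 31.2, 33.1, 32.7 and 35.6 scaled CPM in vehicle and 41.9, 42.4, 45.7 and 44.9 in sorbitol libraries. The groups were well separated, with a log2 fold change of 0.40 (SE 0.08, edgeR adjusted p = 1.82e-04). This peak counts as distal only because it lies more than 1 kb from both outer ends of NR4A1. Starts of the gene that are absent from the promoter windows were not searched, so it may cover one. The peak at chr12:52068879-52070626, within the autophagy gene ATG101 and 9.38 kb past NR4A1, fell from 47.6, 50.8, 46.9 and 44.5 to 34.6, 38.2, 33.8 and 40.5 scaled CPM. Here every sorbitol library lay below every vehicle library, with a log2 fold change of -0.37 (SE 0.08, edgeR adjusted p = 6.42e-04).

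NR4A3, also known as NOR1 (chr9:99821885-99866891), kept a gene-end peak of similar height in both groups. The peak at chr9:99821171-99822306, which holds the 4 CRE cores printed above, gave 39.2, 43.2, 44.8 and 45.2 scaled CPM in vehicle and 44.3, 43.7, 48.2 and 50.1 in sorbitol libraries. The groups overlapped, with a log2 fold change of 0.11 (SE 0.08, edgeR adjusted p = 0.326). A weak peak 10.3 kb upstream, at chr9:99811248-99811621 inside another gene, rose from 1.70, 1.69, 1.39 and 1.16 to 2.00, 3.27, 3.26 and 2.61 scaled CPM. No library of one group reached the other, and the log2 fold change was 0.90 (SE 0.25, edgeR adjusted p = 0.00469), a call kept under all 19 alternative settings that tested it. Among the other 5 distal peaks of NR4A3, 0 were called. The one with the smallest p among negative changes, at chr9:99819350, had -0.13 (edgeR adjusted p = 0.248), and -0.23 with a call without sorbitol replicate 4 (edgeR adjusted p = 0.029).

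IER2, which encodes a nuclear protein of the immediate early response (chr19:13150411-13154911), begins 36 bases from the gene of the syntaxin STX10, and its gene-end peak covers the ends of both. That peak, at chr19:13149732-13150550, gave 17.6, 17.3, 18.7 and 15.4 scaled CPM in vehicle and 12.7, 15.9, 13.5 and 12.0 in sorbitol libraries. Sorbitol replicate 2 and vehicle replicate 4 crossed, and the rest were separate. The log2 fold change was -0.36 (SE 0.11, edgeR adjusted p = 0.00904), lost under 3 other library scalings among 20 alternative settings. Which of the 2 genes the change belongs to cannot be told apart.

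Lower accessibility continued into the body of IER2. The peak at chr19:13151527-13152361 gave 29.7, 30.8, 28.7 and 24.8 scaled CPM in vehicle against 22.2, 21.8, 19.4 and 19.0 in sorbitol libraries, with no overlap and a log2 fold change of -0.47 (SE 0.09, edgeR adjusted p = 1.09e-04). The next body peak, at chr19:13152715-13153402, fell by 0.40 on the log2 scale (SE 0.10, edgeR adjusted p = 0.00281). It was singled out after its values were seen. Of the 12 distal peaks of IER2, 3 were lower and 0 were higher, against 8.38% and 17.7% among all peaks away from gene ends. The one with the smallest p among positive changes, at chr19:13172358, reached a log2 fold change of 0.58 without a call (edgeR adjusted p = 0.0848), and 0.72 with a call without vehicle replicate 4 (edgeR adjusted p = 0.043).

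IER3, also known as IEX-1 and a regulator of cell death (chr6:30743199-30744547), held its level while peaks at neighbouring genes fell. Its gene-end peak, at chr6:30742205-30744873, covers the whole gene and also ends of FLOT1, which encodes flotillin-1, and of IER3-AS1. It ran from 51.9 to 62.9 scaled CPM in vehicle and from 51.5 to 60.0 in sorbitol libraries, with a log2 fold change of -0.03 (SE 0.08, edgeR adjusted p = 0.826). Which of these genes the peak belongs to cannot be told apart.

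Of the 10 distal peaks of IER3, 4 were lower and 0 were higher, against 8.38% and 17.7% among all peaks away from gene ends. All 4 lower peaks lay on the FLOT1 side, 3 of them at an end of another gene, and 32.8% of all tested gene-end peaks were lower. The peak at chr6:30725953-30726359, near an end of the tubulin gene TUBB, fell from 4.42, 5.48, 5.47 and 4.93 to 2.00, 2.72, 2.18 and 2.27 scaled CPM. Each sorbitol library was well below each vehicle library, with a log2 fold change of -1.15 (SE 0.19, edgeR adjusted p = 7.55e-06), the largest fall among the 89 peaks. Within FLOT1, at chr6:30730726-30731370, vehicle libraries gave 13.7, 13.7, 13 and 13.9 scaled CPM and sorbitol libraries 6.91, 7.70, 9.46 and 7.97. With all sorbitol libraries below, this peak had a log2 fold change of -0.76 (SE 0.12, edgeR adjusted p = 2.90e-06). Peaks at the end of the DNA damage adaptor gene MDC1 (chr6:30717032) and at the other end of TUBB (chr6:30719851), singled out after their values were seen, had log2 fold changes of -0.52 and -0.55. On the opposite side, the peak at chr6:30752268 had a positive change that was not called, at 0.34 on the log2 scale (edgeR adjusted p = 0.159).

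IER5, a regulator of the heat shock response (chr1:181088700-181092900), showed the reverse arrangement, with rising distal peaks around a gene end that was not called. The gene-end peak at chr1:181088290-181090471 gave 93.7, 96.9, 88.0 and 82.2 scaled CPM in vehicle and 74.2, 85.0, 84.2 and 96.8 in sorbitol libraries. Replicate 4 was the lowest vehicle library and the highest sorbitol library, and the groups overlapped. The log2 fold change was -0.08 (SE 0.08, edgeR adjusted p = 0.468), and it was -0.20 (adjusted p = 0.0259) without the replicate 4 libraries of both groups. Tested as a gene-end sum, it was also called without sorbitol replicate 4 alone, at -0.16 (edgeR adjusted p = 0.026).

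Of the 16 distal peaks of IER5, 6 were higher and 2 were lower, against 17.7% and 8.38% among all peaks away from gene ends. All 8 called peaks were intergenic, and the 6 higher ones are all of the higher intergenic peaks found at the 9 loci. The one with the most counts, at chr1:181104516-181105842 and 11.6 kb past the gene, gave 34.6, 34.8, 34.5 and 36.7 scaled CPM in vehicle and 46.2, 48.3, 45.8 and 52.7 in sorbitol libraries. Sorbitol libraries were all well above vehicle libraries, with a log2 fold change of 0.46 (SE 0.08, edgeR adjusted p = 1.96e-05).

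The other higher peaks of IER5 had fewer counts and were singled out after their values were seen. At chr1:181101916, 9.02 kb past the gene, the mean went from 3.25 ± 0.253 to 5.67 ± 0.639 scaled CPM (SD, n = 4), which is 0.81 on the log2 scale (edgeR adjusted p = 3.02e-04). Peaks at chr1:181096217, chr1:181127022 and chr1:181141460, between 3.32 and 48.6 kb past the gene, had log2 fold changes of 0.39, 0.51 and 0.54. The only higher peak upstream, at chr1:181064044 and 24.1 kb away, had 0.65. Groups did not overlap at 5 of these 6 peaks, the exception being chr1:181096217. Because the 6 were picked by their call on the same libraries, this separation adds no support. Near the far edge of the window, the peak at chr1:181142345-181142898 fell from 18.8 ± 1.00 to 13.9 ± 1.79 scaled CPM (SD, n = 4), or -0.43 on the log2 scale (SE 0.11, edgeR adjusted p = 0.00144), and a weak peak at chr1:181119339 had -0.56.

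**Figure D3:**
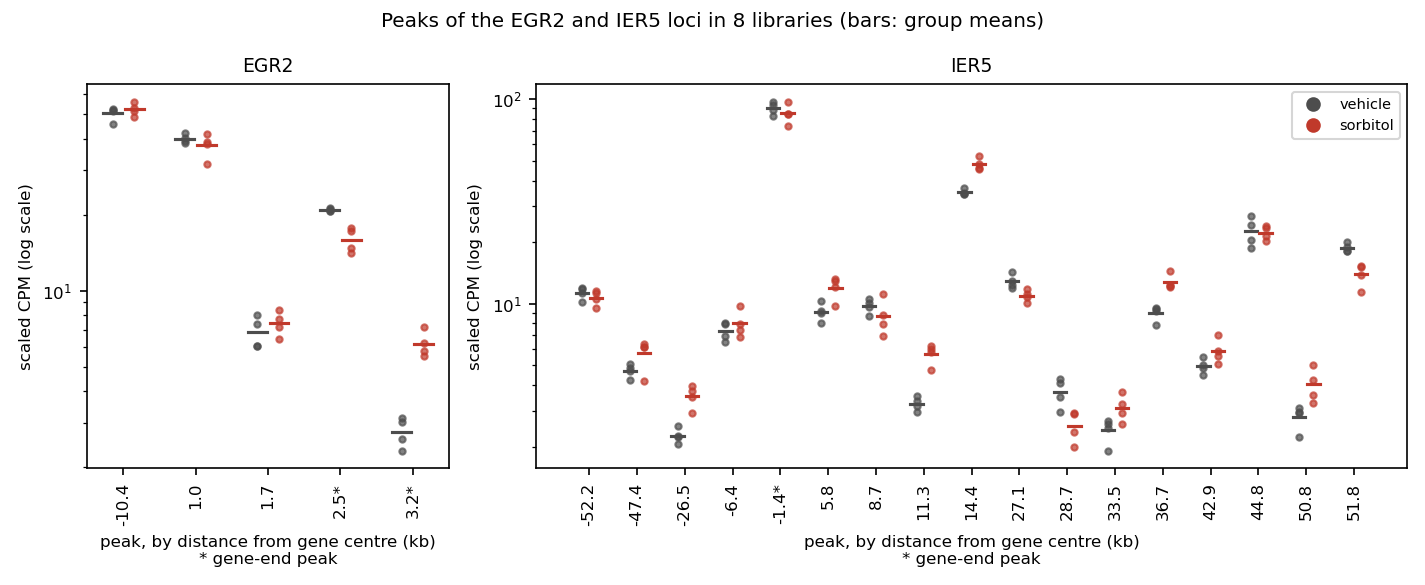
Scaled CPM (vertical axes, log scale) of each peak of the EGR2 and IER5 loci in the 4 vehicle and 4 sorbitol libraries, ordered by distance from the gene centre in kb, with bars for group means and asterisks for gene-end peaks. At EGR2 the narrow gene-end peak rises from a low level while its neighbour falls, and at IER5 the gene-end peak overlaps between groups while 6 distal peaks are higher in sorbitol libraries.

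Counts were then summed per gene over its gene-end peaks and, separately, over its distal peaks, and the same sums were tested for all protein-coding genes with a peak. In gene-end sums 7.31% of 14729 genes were higher and 50.9% were lower, with a median of -0.22. Against that, 2 of the 9 genes were higher (NR4A1 at 0.22 and NR4A2 at 0.29), 2 were lower (EGR1 at -0.23 and IER2 at -0.36), and the median of the 9 was -0.03. Distal sums were higher in 11.8% and lower in 54.2% of 19454 genes, with a median of -0.19. Among the 9 genes IER5 was higher at 0.15 (SE 0.05, edgeR adjusted p = 0.00431), and EGR1, IER2 and IER3 were lower at -0.36, -0.25 and -0.46.

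Whether the gene end and its surroundings changed unequally was tested per gene with limma on log2 (scaled CPM + 0.5), as the gene-end change minus the distal change. Distal sums include peaks over inner starts, such as chr10:62816212 at EGR2 and chr12:52037470 at NR4A1. They also include peaks at ends of other genes, such as chr6:30717032 at MDC1 and chr6:30719851 at TUBB for IER3. Those peaks had vehicle means of 47.6 and 29.0 scaled CPM, within an IER3 distal sum of 128.9. Of 14630 genes, 11.9% had a positive and 20.4% a negative difference past the adjusted threshold. IER3 had a difference of 0.42 (SE 0.07, limma adjusted p = 2.34e-04), which held under all 12 alternative settings. NR4A1 had 0.30 (SE 0.10, limma adjusted p = 0.0265), lost when vehicle replicate 2 or 3 or sorbitol replicate 1, 2 or 3 was left out (0.24 to 0.29). IER5 had -0.24 (SE 0.08, limma adjusted p = 0.0204), lost without vehicle replicate 1, vehicle replicate 2 or sorbitol replicate 1 (-0.22 to -0.18). The other 6 genes were not called, with NR4A2 nearest to the threshold at 0.18 (SE 0.07, limma adjusted p = 0.0529), and called without vehicle replicate 4 at 0.23 (limma adjusted p = 0.021).

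**Figure D4:**
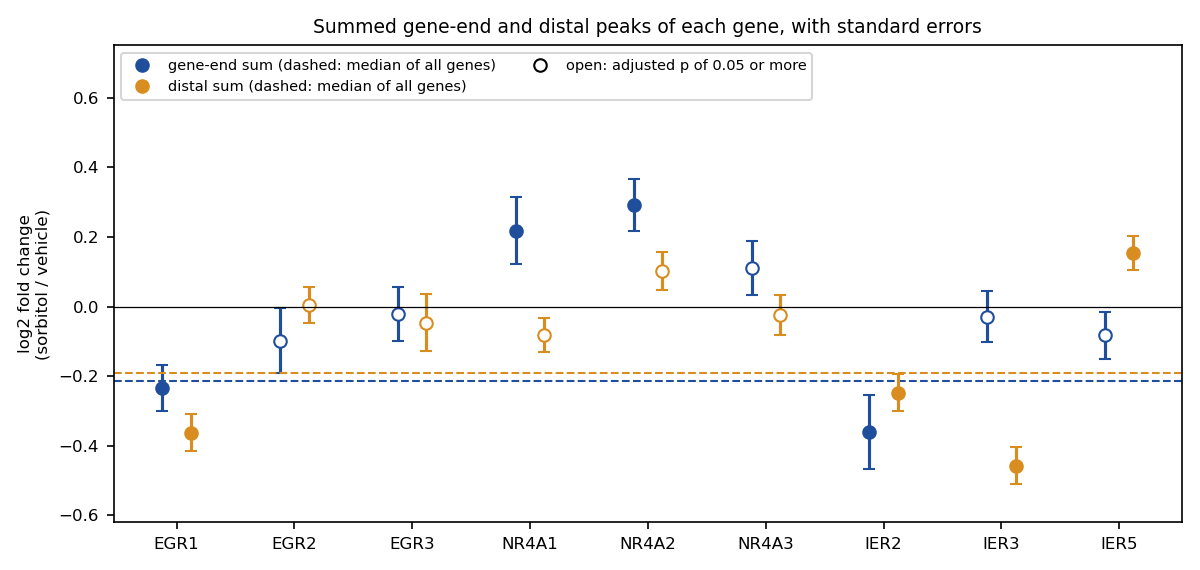
Log2 fold change (sorbitol over vehicle, vertical axis, bars are standard errors) of the summed gene-end peaks and the summed distal peaks of each of the 9 genes, with filled points for called sums and dashed lines for the medians of all genes, -0.22 and -0.19. The gene-end point of IER3 sits near 0 above a distal point at -0.46, and that of IER5 sits below its distal point at 0.15.

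Gene-end sums of related genes gave a setting for these values. Among 8 relatives and corepressors, 1 was higher and 4 were lower, with a median of -0.17, where all gene-end sums had 7.31% higher, 50.9% lower and a median of -0.22. NAB1, a corepressor of EGR proteins, was the higher one at 0.28 (SE 0.08, edgeR adjusted p = 9.62e-04). EGR4 and IER5L, family members of EGR and IER5, were lower at -0.22 each, and RXRA and RXRB, receptors of the retinoid X group with which NR4A1 and NR4A2 can pair, were lower at -0.32 and -0.64.

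Of 22 genes for factors and kinases acting upstream of immediate early promoters, 21 had a gene-end peak. Among them 1 was higher (ELK3, at 0.24) and 15 were lower, with a median of -0.34, beside the 7.31% higher, 50.9% lower and median of -0.22 of all gene-end sums. SRF fell by 0.36 on the log2 scale, its partner ELK1 by 0.45, the CREB coactivator gene CRTC2 by 0.58 and the kinase gene MAP2K2 by 0.67. CREB1 itself was not called, at -0.13.

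Of 28 other immediate early genes with a gene-end peak, 8 were higher and 8 were lower, with a median of -0.02, beside the same 7.31% and 50.9% of all gene-end sums. The higher ones included ZFP36, which encodes an mRNA decay factor, at 0.58, the MAP kinase phosphatase gene DUSP5 at 0.43, and the YAP target gene CCN2 at 0.34. Lower ones included PPP1R15A, a phosphatase subunit of the integrated stress response, at -0.40 and the transcription factor gene KLF2 at -0.37. FOS was not called, at -0.03, nor was CCN1, which is also a YAP target gene, at -0.003. These lists, like the members, were drawn up with earlier results known and describe the setting only.

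Among all protein-coding genes, the gene-end sums most like that of NR4A2, the largest rise of the 9, were those of EPB41L2, PTPN5 and FARSB, with Pearson correlations of log2 scaled CPM of 0.988, 0.983 and 0.983 over the 8 libraries. For IER2, the largest fall, they were STX10, which shares the peak, at 0.991, TMEM120B at 0.982 and SCRT2 at 0.981. With 8 libraries in 2 groups, 241 genes had a correlation above 0.9 with NR4A2 and 258 with IER2, so these likenesses are not particular.

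The labelled cell line was compared with marker genes. Gene-end peaks were present at 4 of 6 HEK293 markers, with summed levels of 86.4 to 94.6 scaled CPM in vehicle and 70.6 to 85.6 in sorbitol libraries, and PAX2 and LIN28B had none. Markers of other cell types had gene-end peaks at 5 of 9, summing to 26.3 to 33.7 and 28.9 to 31.4 scaled CPM, and CD3E, ALB, UMOD and AQP2 had none. Most of that sum was COL1A1, with means of 22.6 in vehicle and 20.7 in sorbitol libraries, while EPCAM, an epithelial marker, had means of 3.14 and 5.14 scaled CPM. The part of this marker shift in the results was not tested.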

How the data were processed

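Accessibility was measured by ATAC-seq in 8 HEK293 libraries. The authors deposited 1 table of raw counts per peak, whole numbers for 129536 peaks shared by all libraries. Per the submitters' processing notes, Trim Galore 0.6.10, FastQC 0.12.1, MultiQC 1.28, BWA 0.7.17, SAMtools 1.22, Picard, MACS2 2.2.9.1, bedtools, deepTools 3.5.4 and DESeq2 were used with the builds hg38 and GRCh38. Their settings, the peak merging and whether reads or fragments were counted are not given in the sources used here. Coordinates are as in the table. Whether its start positions count from 0 or 1 is not stated. Read position shifts for the transposase are likewise not given.

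Groups came from the titles, and the columns from the replicate number in their names. Low peaks were removed from the deposited counts by edgeR's filterByExpr at a minimum count of 10 and a total of 15, which took out 49, and library factors were computed by TMM over the 129487 kept peaks. They were tested with edgeR 4.0.16's quasi-likelihood test in R 4.3.3, treatment as the only term, with Benjamini-Hochberg adjustment and a threshold of 0.05. Gene sums were tested likewise with the same factors over all protein-coding RefSeq genes with a peak, and gene-end minus distal differences with limma 3.58.1 at a pseudocount of 0.5 CPM. The SE of a log2 fold change was taken from the quasi-likelihood F statistic. Both fits were tested on simulated data. DESeq2 1.42.0 served as an alternative. Alternatives covered library factors, the filter, the threshold, the model, left-out libraries, the flank and the gene-end distance.

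Named peaks were every gene-end peak, the distal peak of each gene with the smallest p in each direction, and distal peaks called at 2-fold or more. The likeness rule took the 3 genes with the highest correlation for the largest rise and fall. Members, lists and tests were chosen with earlier results of these data known. Libraries held 11522266 to 19831471 counts, which with 4 libraries per group sets the precision. Same-numbered replicates did not deviate together, so they were not paired.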

Additional observations from a re-analysis of the deposited data

Results flagged for a closer look

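The IER5 distal peak at chr1:181104516 had 1 vehicle library apart from the other 3. Vehicle replicate 4 gave 36.7 scaled CPM, while the others gave 34.5 to 34.8, and the gap to the nearest took 0.838 of the range of the group. It was still below the lowest sorbitol library, at 45.8 scaled CPM. This was 1 of 62 groups of 4 libraries examined in this way, and chance flags about 1 in 20, or 3.1 of them.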

How the results depend on the processing

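Library scaling moved these counts most. Among the 89 peaks, TMM factors from gene-end peaks, which moved the median of all tested peaks from 0.01 to 0.19, gave 24 higher and 9 lower. Factors from unplaced and unlocalized contigs gave 3 and 4, library totals 12 lower, a threshold of 0.01 gave 7 and 12, a flank of 10 kb gave 6 and 9 of 37 peaks, and 100 kb gave 35 lower of 157. Gene-end peaks numbered 4 higher under library totals, 5 higher and 0 lower under gene-end factors, 1 and 0 under contig factors, 4 and 1 under a loess offset, and 6 lower of 17 within 2 kb. Shares of all peaks or genes called are given above for the main factors only. Counts under other factors thus have no such share beside them. With TMM factors computed on the sums themselves, gene-end sums were 6 higher and 0 lower, and distal sums 5 higher (2 under library totals). Those factors also turned the sign of EGR3, IER3 and IER5 gene-end sums (0.20, 0.19 and 0.14, edgeR adjusted p = 0.00871, 0.00559 and 0.0247) and of NR4A1 and NR4A3 distal sums (0.11 and 0.17, adjusted p = 0.00946 and 0.00306). TMM on the sums sets the level of no change from the sums themselves. Under the main factors their medians over all genes were -0.22 for gene-end and -0.19 for distal sums. The part of this level in the changed signs, and the cause of the changed calls, was not tested.

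Leaving out 1 library gave 8 to 12 higher and 16 to 20 lower peaks, 2 higher and 2 to 3 lower gene-end peaks, 1 to 2 higher and 2 to 3 lower gene-end sums, 1 to 2 higher and 3 lower distal sums, and 1 to 3 positive and 0 to 1 negative differences. For single results, 853 values kept direction and call, 28 gained and 53 lost a call, and 5 turned. Same-numbered replicates correlated at -8.04e-05, 0.00671, -0.0308 and -0.133 in their deviations, so the numbers do not pair them. With the replicate block there were 9 higher and 19 lower peaks, 2 and 3 gene-end peaks, 2 and 2 gene-end sums, 1 and 3 distal sums and 2 and 1 differences.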
